A study of Rattus norvegicus with 58 samples.

Results

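Matrix metalloproteinases, aggrecanases and their inhibitor Timp1 were followed through the synovium of arthritic, treated and naive rats. The set was chosen by name as the collagenases Mmp13 and Mmp8, the stromelysin Mmp3, the gelatinases Mmp9 and Mmp2, the membrane-bound Mmp14, the aggrecan-cleaving Adamts5 and Adamts1, and Timp1. Of these 9 genes, 8 were among the 16879 identified genes of the expression table, and Adamts5 (ENSRNOG00000001606) was not analysed here. Each gene was matched by its Ensembl identifier, which is given where its values are first described.

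Synovial tissue came from female DA/OlaHsd rats, an inbred strain prone to arthritis, and was sequenced in 58 libraries. Arthritis was induced with 250 µl of pristane, a hydrocarbon oil, at 6 to 8 weeks of age, and treatment began once each rear limb had reached a score of 3 or more (pristane-induced arthritis, PIA). RTD-1, the macrocyclic peptide rhesus theta-defensin 1, was injected subcutaneously at 5 mg per kg in saline. Arthritic rats given RTD-1 gave 4 libraries at 1 day, 8 at 3 days and 8 at 5 days. Arthritic rats given saline gave 4, 8 and 8 libraries at those times, and untreated PIA rats gave 4. Healthy rats given RTD-1 gave 5 libraries at 3 days and 5 at 5 days, and naive rats gave 4. The labels state no age for the healthy and naive rats, and no healthy saline group was analysed here. Bulk tissue was measured, so fewer cells of a type and less RNA per cell cannot be told apart.

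Gene counts recovered from the table summed to between 464693 and 7716834 reads per library. The deposited values carry 1 scaling factor per library, which was at least 10 megareads in 13 deeper libraries. These were all 10 libraries of healthy rats and 3 of saline-treated arthritic rats (day 1 replicate 2, day 3 replicate 4 and day 5 replicate 1). Expression is given in normalized reads, which are reads scaled to the median library depth. Log2 fold changes were taken on log2(normalized reads + 1), which understates changes of genes with few reads. A gene was called where its Benjamini-Hochberg adjusted p from limma, over all 13062 genes tested, fell under 0.05. Normalized reads are not divided by transcript length, so levels were compared between groups for each gene and not between genes.

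Matrix metalloproteinases are zinc-dependent proteases, secreted or membrane-bound, that are made as inactive precursors and cleave collagens, proteoglycans and other matrix proteins. In the inflamed joint they are produced by synovial fibroblasts, macrophages and neutrophils, and their activity is held in check by tissue inhibitors such as TIMP1. Collagenases open the triple helix of fibrillar collagen, gelatinases digest the unwound chains, and aggrecanases of the ADAMTS family cleave the proteoglycan that gives cartilage its stiffness.

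Start-site regions of RefSeq (build GRCr8), from 250 bases before to 50 bases after the annotated start, were matched by symbol for 5 of the 8 measured genes (Mmp13, Mmp3, Mmp8, Adamts1 and Timp1). Those of Mmp13 and Mmp3, both strongly higher in arthritis, and of the inhibitor Timp1 are shown because these 3 genes carry the comparisons that follow. Capitals mark the AP-1 motif TGANTCA and the TATA box TATAAA, each searched on both strands. The regions are chr8:12782579-12782878 on the plus strand for Mmp13, chr8:12925031-12925330 on the plus strand for Mmp3, and chrX:3771073-3771372 on the minus strand for Timp1.
Mmp13: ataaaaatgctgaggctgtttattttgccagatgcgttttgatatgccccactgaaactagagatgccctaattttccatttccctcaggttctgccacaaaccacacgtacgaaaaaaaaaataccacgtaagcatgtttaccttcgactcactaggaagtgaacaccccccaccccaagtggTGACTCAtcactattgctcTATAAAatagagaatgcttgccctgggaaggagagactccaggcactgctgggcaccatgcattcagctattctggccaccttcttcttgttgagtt
Mmp3: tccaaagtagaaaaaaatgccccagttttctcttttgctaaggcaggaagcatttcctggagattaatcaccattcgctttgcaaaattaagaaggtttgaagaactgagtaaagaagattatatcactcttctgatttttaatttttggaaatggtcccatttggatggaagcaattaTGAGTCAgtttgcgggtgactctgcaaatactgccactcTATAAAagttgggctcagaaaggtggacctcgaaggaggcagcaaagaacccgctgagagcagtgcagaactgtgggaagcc
Timp1: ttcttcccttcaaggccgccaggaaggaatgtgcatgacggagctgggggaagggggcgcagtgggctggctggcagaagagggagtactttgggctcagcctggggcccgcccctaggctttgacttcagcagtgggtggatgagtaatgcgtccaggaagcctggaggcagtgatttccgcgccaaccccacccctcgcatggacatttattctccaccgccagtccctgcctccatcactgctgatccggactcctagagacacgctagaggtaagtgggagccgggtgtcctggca
The AP-1 motif stood at bases -66 to -60 from the start in Mmp13 and at -71 to -65 in Mmp3. No exact match was present in the windows of Mmp8, Adamts1 or Timp1. Near matches that differ by a letter, such as tgagtaa in Timp1 and tgactcc in Mmp8, were not counted, so the search does not show that these windows lack an AP-1 site. The exact AP-1 motif was present in 7.33% of the 33469 regions of this length in the table. The TATA box was present in Mmp13, Mmp3, Mmp8 and Adamts1, and in 14.2% of all regions. In Mmp8 it read on the minus strand, at -30 to -25, and in Adamts1 it stood at -70 to -65. Motifs listed as NF-kB, C/EBP and PEA3 were searched as well and are not in capitals. The NF-kB motif was present in 0 of the 5 windows and in 19.3% of all regions. C/EBP was present in Mmp3 and Mmp8 (10.6% of all regions). PEA3 was present in Mmp13, Mmp3, Mmp8 and Timp1 (34.5% of all regions). A match describes the letters of the window and not the binding of a factor. In the same annotation Mmp13, Mmp3 and Mmp8 lie in a cluster of metalloproteinase genes on chromosome 8, Adamts1 lies beside Adamts5 on chromosome 11, and Mmp9, Mmp2, Mmp14 and Timp1 lie on chromosomes 3, 19, 15 and X.

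The first question was which of these genes differed between arthritic and naive synovium. All 8 were higher in untreated PIA rats than in naive rats by limma, with no overlap between the 4 PIA and 4 naive libraries for any of them. The share of all tested genes without such overlap is not given here, so the lack of overlap describes each gene only. Across all tested genes 39.3% were called and 27.8% were called higher in PIA. The 8 genes were chosen with earlier results of these data known, so setting them beside all genes is a description and not a test. The count includes Mmp8, which passed the filter on read level through arthritic libraries alone. The median log2 fold change was 3.60 over the 8 genes, against 0.28 over all genes, and TMM scaling brought the all-gene median to 0.00 and lowered each of the 8 fold changes by about that shift. The number of genes called higher among all called was 3637 of 5130 as scaled here and 2578 of 5140 with TMM. With TMM the 8 log2 fold changes lay between 1.94 for Mmp14 and 7.14 for Mmp13.

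Mmp13 (ENSRNOG00000008478), the collagenase that cleaves type II collagen of cartilage, had 1187, 1334, 797 and 359 normalized reads in PIA libraries, against 2.67, 2.88, 0 and 31.2 in naive libraries. The naive library without a read allows up to 2.99 normalized reads, taking 3 reads as the limit that a count of 0 allows. The log2 fold change was 7.47 (SE 1.18, limma adjusted p = 1.45e-06), which ranked 3 of 13062 genes by size. Over all alternatives other than leaving out single libraries, it ran from 5.91 to 7.86, with limma adjusted p up to 0.0225. Mmp8 (ENSRNOG00000009907), the collagenase known from neutrophil granules, had 75.5, 135, 91.4 and 48.0 normalized reads in PIA libraries, against 5.33, 5.76, 0.998 and 5.21 in naive libraries. It rose by 4.11 on the log2 scale (SE 0.66, limma adjusted p = 1.71e-06). Mmp8 reached 10 normalized reads in 42 of the 44 arthritic libraries, in 1 of the 14 libraries without arthritis and in 0 naive libraries, so it passed the filter through the arthritic libraries alone.

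Mmp3 (ENSRNOG00000032626), a stromelysin that cleaves proteoglycans and activates other metalloproteinase precursors, had 1101, 1150, 767 and 1285 normalized reads in PIA libraries, against 58.7, 57.6, 95.8 and 63.5 in naive libraries. Each PIA library was several times above every naive library, and the log2 fold change was 3.95 (SE 0.51, limma adjusted p = 2.06e-08). Mmp9 (ENSRNOG00000017539), the gelatinase made by neutrophils, macrophages and osteoclasts, had 152, 182, 85.8 and 23.98 normalized reads in PIA libraries, against 2.67, 0, 0 and 22.9 in naive libraries. The lowest PIA library and the highest naive library nearly met. Its log2 fold change was 4.85 (SE 1.27, limma adjusted p = 0.00202), and limma voom on the recovered reads did not call it (5.43, adjusted p = 0.0799).

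Mmp2 and Mmp14 had log2 fold changes just above 2, with the smallest standard errors of the set. Mmp2 (ENSRNOG00000016695), gelatinase A, had 9582, 5546, 9192 and 3427 normalized reads in PIA libraries, against 1090, 1039, 1522 and 1324 in naive libraries. Mmp14 (ENSRNOG00000010947), the membrane-type protease that activates the MMP2 precursor at the cell surface, had 3807, 2199, 3611 and 1530 normalized reads in PIA libraries, against 541, 474, 726 and 510 in naive libraries. PIA replicates 1 and 3 were high and replicates 2 and 4 low for both genes. Mmp2 rose by 2.38 on the log2 scale (SE 0.25, limma adjusted p = 2.51e-11) and Mmp14 by 2.23 (SE 0.27, limma adjusted p = 1.90e-09).

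Adamts1 (ENSRNOG00000001607), a protease that cleaves aggrecan and versican, had 1334, 1057, 680 and 1242 normalized reads in PIA libraries, against 123, 136, 204 and 163 in naive libraries. Timp1 (ENSRNOG00000010208), the secreted inhibitor that binds most metalloproteinases, had 949, 798, 831 and 852 normalized reads in PIA libraries, against 76.4, 56.7, 138 and 106 in naive libraries. Timp1 was the most even of the 8 genes across the PIA libraries, with a mean of 858 ± 64.9 (SD, n = 4). Adamts1 rose by 2.76 (SE 0.45, limma adjusted p = 1.87e-06) and Timp1 by 3.25 (SE 0.41, limma adjusted p = 1.06e-08) on the log2 scale.

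**Figure D1:**
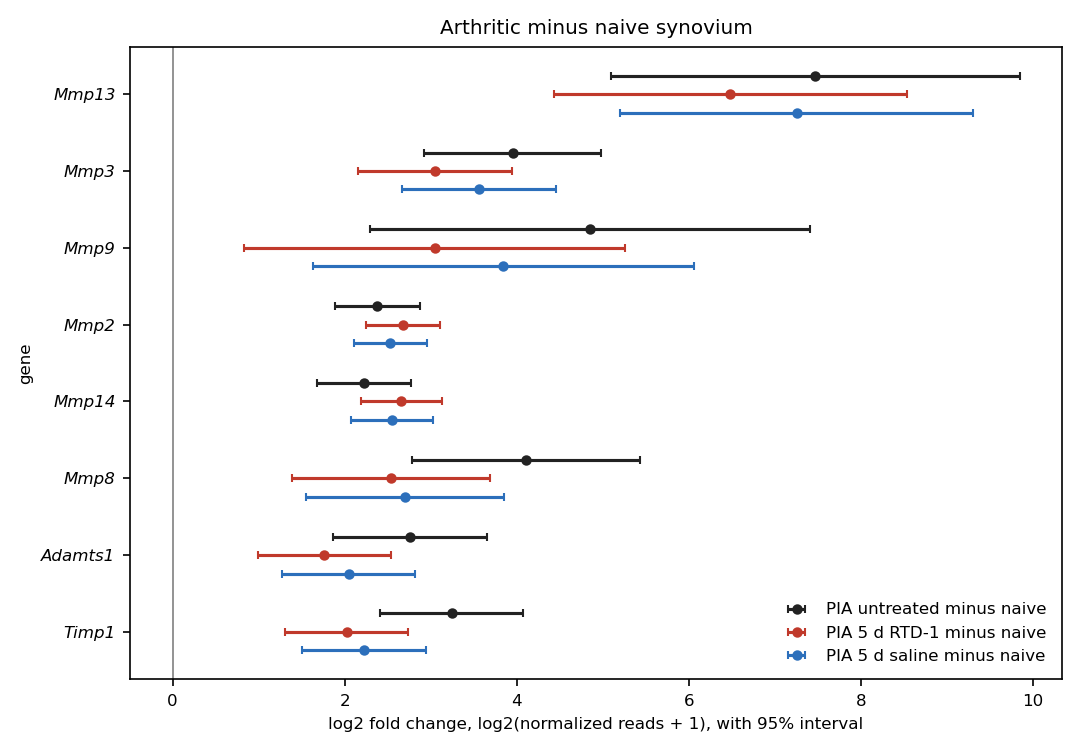
Log2 fold change (x axis) with its 95% interval for each of the 8 genes, in untreated PIA, day 5 RTD-1 and day 5 saline rats against naive rats. All 24 intervals lie above 0, and Mmp13 lies farthest to the right in each group, at 7.47 in PIA.

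Each protease was also set against Timp1 by the ratio of their normalized reads within a library. The median Mmp13 to Timp1 ratio was 1.10 in PIA libraries (0.421 to 1.67) and 0.0429 in naive libraries (0 to 0.294), with no overlap. The median Mmp3 to Timp1 ratio was 1.30 in PIA libraries (0.922 to 1.51) and 0.732 in naive libraries (0.598 to 1.02), and the ranges overlapped. The median Mmp2 to Timp1 ratio lay the other way, at 8.52 in PIA libraries (4.02 to 11.1) and 13.4 in naive libraries (11.1 to 18.3), and the ranges met at 11.1. The median Mmp14 to Timp1 ratio was 3.38 in PIA libraries (1.8 to 4.34) and 6.18 in naive libraries (4.8 to 8.36). That of Adamts1 was 1.36 in PIA libraries (0.818 to 1.46) and 1.57 in naive libraries (1.48 to 2.41). Both were lower in PIA libraries, with no overlap. The medians of Mmp9 (0.132 and 0.0174) and Mmp8 (0.0947 and 0.0594) were higher in PIA than in naive libraries, and their ranges overlapped. These ratios are descriptions without a test, and their size depends on transcript length.

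The elevation over naive synovium was present at day 5 with either treatment. All 8 genes were called higher in day 5 RTD-1 rats than in naive rats, where 25.6% of all genes were called and 14.5% were called higher. All 8 were also called higher in day 5 saline rats than in naive rats, where 27.1% of all genes were called and 16.5% were called higher. Both counts include Mmp8, which passed the filter through arthritic libraries alone. Mmp13 differed from naive by 6.48 on the log2 scale in day 5 RTD-1 rats (SE 1.02, limma adjusted p = 2.29e-06) and by 7.25 in day 5 saline rats (SE 1.02, limma adjusted p = 2.05e-07). Its lowest day 5 RTD-1 library (19.7 normalized reads) lay under its highest naive library (31.2). Mmp8 overlapped between these groups as well (lowest 2.56 in day 5 RTD-1 rats, highest 5.76 in naive rats). Neither gene overlapped between day 5 saline and naive rats. Mmp3 differed by 3.05 in day 5 RTD-1 rats (SE 0.45, limma adjusted p = 4.85e-07) and by 3.56 in day 5 saline rats (SE 0.45, limma adjusted p = 1.42e-08). Timp1 differed by 2.02 in day 5 RTD-1 rats (SE 0.36, limma adjusted p = 1.55e-05) and by 2.23 in day 5 saline rats (SE 0.36, limma adjusted p = 2.37e-06). The 2 day 5 comparisons share the 4 naive libraries.

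Mmp9 had the largest adjusted p of these calls. Its log2 difference from naive was 3.05 in day 5 RTD-1 rats (SE 1.10, limma adjusted p = 0.0347) and 3.84 in day 5 saline rats (SE 1.10, limma adjusted p = 0.00648), and the groups overlapped in each comparison. The RTD-1 call was lost without naive replicate 1, 2 or 3 or RTD-1 replicate 3, 4, 6 or 8 (limma adjusted p from 0.0545 to 0.148). It was also lost with a pseudocount of 8 (1.66, 0.103), with only the compared groups in the fit (3.05, 0.109) and with a replicate block (2.58, 0.0918). limma voom called 5 of the 8 genes in day 5 RTD-1 rats, without Mmp13 (adjusted p = 0.065), Mmp8 (0.143) and Mmp9 (0.378). It called 6 in day 5 saline rats, without Mmp8 (0.0833) and Mmp9 (0.196).

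**Figure D2:**
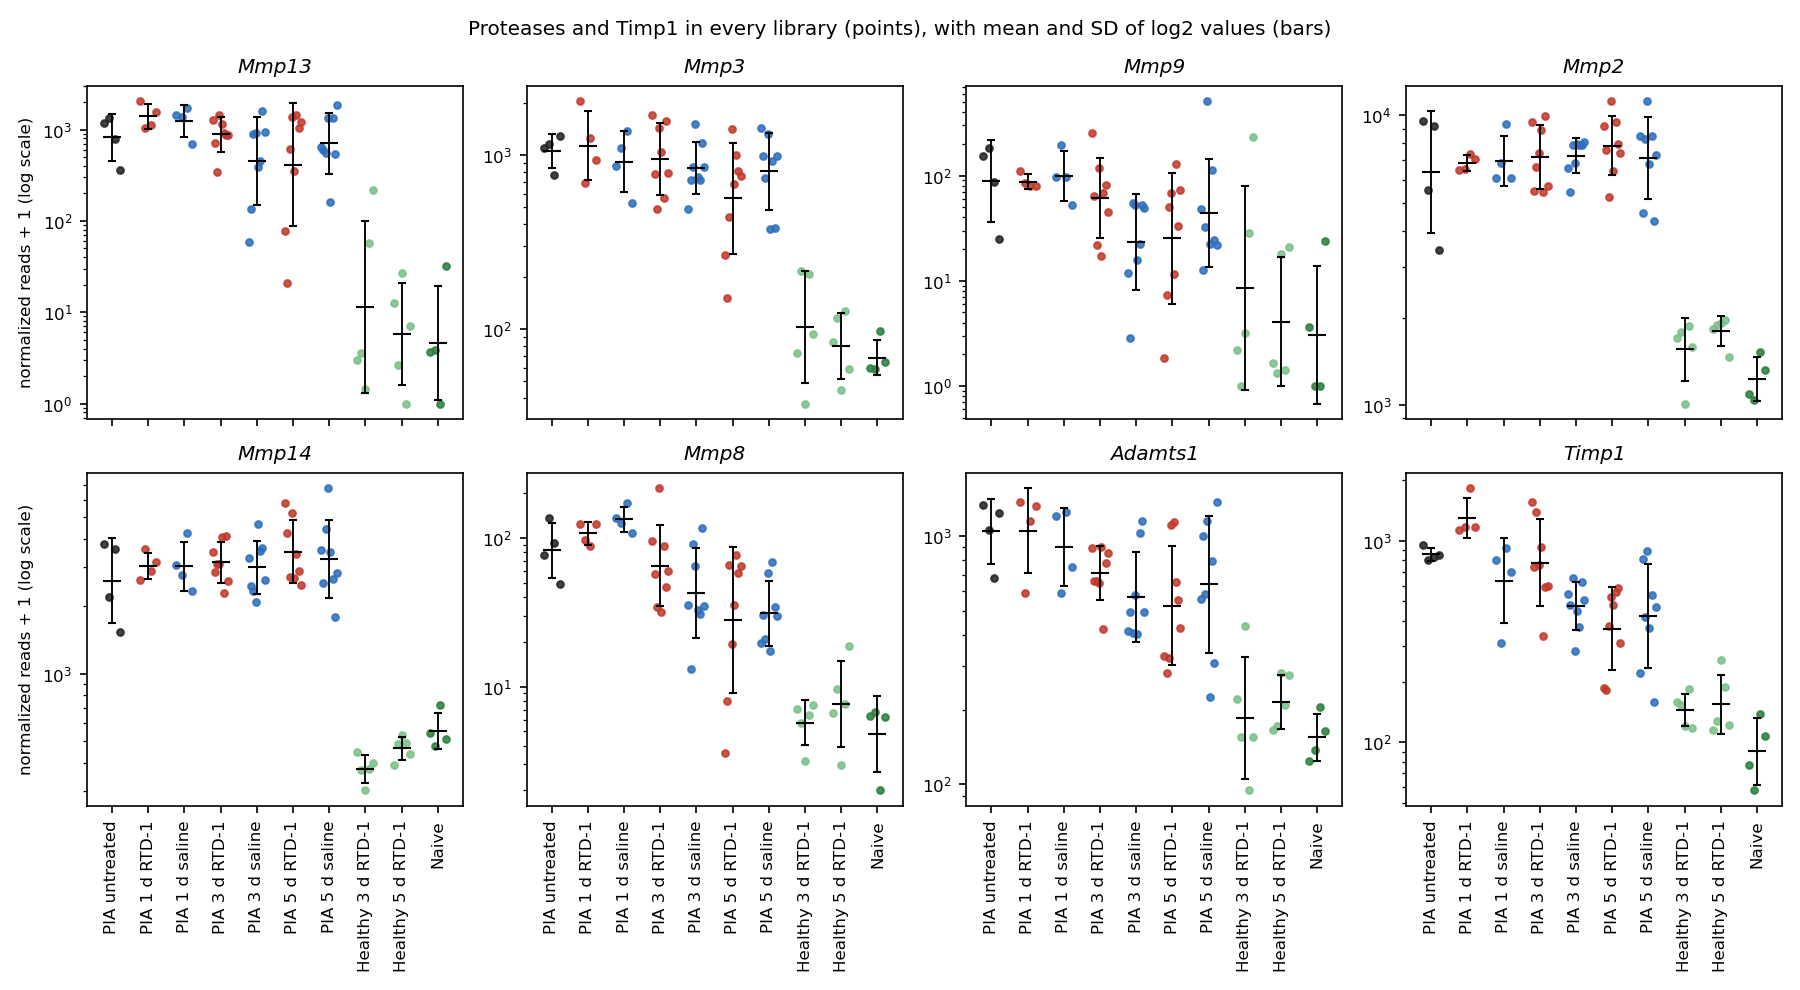
Normalized reads + 1 (y axis, log scale) of each gene in all 58 libraries by group (x axis), with a point per library and bars for the mean and SD of the log2 values of each group. Mmp2 and Mmp14 separate arthritic from other libraries completely, while Mmp13 and Mmp9 spread widely within groups.

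Taking all 44 arthritic libraries against the 14 libraries of naive and healthy RTD-1 rats, Mmp2 ran from 3427 to 11199 in arthritic libraries and from 1012 to 1973 in the others. Mmp14 ran from 1530 to 6756 in arthritic libraries and from 300.1 to 726 in the others. For Mmp2 and Mmp14, 0 arthritic libraries fell within the range of the others. For Mmp3 it was 1 arthritic library, for Mmp8 and Timp1 4 each, for Mmp13 5 and for Adamts1 10. For Mmp9 it was 42, because 1 healthy RTD-1 library reached 231 normalized reads. The share of all tested genes that separate in this way is not given here, so these counts describe each gene only.

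The order of the group means within arthritis was mostly within the spread between libraries. Of 47 pairs of neighbouring arthritic groups in the orders of the 8 genes, 1 differed by more than the larger SD of the pair. This was Timp1, at 1323 ± 338 normalized reads in day 1 RTD-1 rats (SD, n = 4) and 864 ± 419 in day 3 RTD-1 rats (SD, n = 8). Mmp13 ran from 1448 ± 459 in day 1 RTD-1 rats (SD, n = 4) at the top to 672 ± 509 in day 3 saline rats (SD, n = 8) at the bottom of the arthritic groups. Below them came healthy day 3 RTD-1 (55.9 ± 93.4), naive (9.20 ± 14.8) and healthy day 5 RTD-1 rats (9.02 ± 10.4). Mmp8 was highest in day 1 saline rats (134 ± 26.5) and lowest in day 5 saline rats (34.0 ± 18.9) among arthritic groups, and Mmp9 was highest in PIA rats (111 ± 70.6) and lowest in day 3 saline rats (31.8 ± 21.7).

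The central question of the study was the effect of RTD-1 against saline in arthritic rats. None of the 8 genes was called at day 1, day 3 or day 5, or in the average of the 3 days, by limma on normalized reads, with TMM factors or with limma voom. Over all tested genes 0% were called at day 1, 0.00766% at day 3, 0% at day 5 and 0% in the average, so few or no genes of the table were called either. At an unadjusted p under 0.05 there were 1, 1, 0 and 1 of the 8 genes in these 4 comparisons, and the gene was Timp1 each time, against 612, 1010, 470 and 760 of all genes.

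Timp1 at day 1 had 1126, 1172, 1828 and 1166 normalized reads in RTD-1 rats, against 807, 310, 918 and 701 in saline rats. Every RTD-1 library was above every saline library. The log2 difference was 1.03 (SE 0.41, 95% interval 0.20 to 1.86), with an unadjusted p of 0.0159 in limma and an adjusted p of 0.912. At day 3 Timp1 had a lowest value of 336, a median of 749 and a highest of 1567 normalized reads in RTD-1 rats (n = 8), against 283, 496 and 654 in saline rats (n = 8). The groups overlapped at day 3, and the log2 difference was 0.71 (SE 0.29, 95% interval 0.13 to 1.30, limma unadjusted p = 0.0179 and adjusted p = 0.530). At day 5 Timp1 had a lowest value of 180, a median of 429 and a highest of 585 normalized reads in RTD-1 rats (n = 8), against 158, 445 and 894 in saline rats (n = 8). The log2 difference at day 5 was -0.20 (SE 0.29, limma adjusted p = 0.998).

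The deeper saline libraries held low Timp1 values, with 310 at day 1 and 283 at day 3, the lowest of their groups, and 219 at day 5, the second lowest. Without these 3 libraries the log2 difference of Timp1 was 0.69 at day 1, 0.61 at day 3 and -0.34 at day 5. With TMM factors it was 0.86 at day 1 and 0.72 at day 3. Over all alternatives other than leaving out single libraries, the day 1 difference of Timp1 ran from 0.55 to 1.03. The day 5 effect minus the day 1 effect was -1.23 (SE 0.51, limma unadjusted p = 0.0183, adjusted p = 0.943). The day 5 effect minus the day 3 effect was -0.92 (SE 0.41, limma unadjusted p = 0.0308, adjusted p = 0.637), and none of the 8 genes was called in a comparison of effects between days.

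Mmp13 at day 3 had a lowest value of 343, a median of 899.8 and a highest of 1439 normalized reads in RTD-1 rats, against 58.5, 676 and 1587 in saline rats. Saline replicates 1 and 2, at 58.5 and 135, were low. The log2 difference was 0.97 (SE 0.83, 95% interval -0.71 to 2.65, limma adjusted p = 0.834), and without saline replicate 1 it was 0.55. At day 5 Mmp13 had a lowest value of 19.7, a median of 823 and a highest of 1435 normalized reads in RTD-1 rats, against 159, 622 and 1843 in saline rats. The low day 5 libraries were RTD-1 replicates 1 and 2, at 76.9 and 19.7, and the log2 difference was -0.77 (SE 0.83, 95% interval -2.45 to 0.91, limma adjusted p = 0.998). Without RTD-1 replicate 1 it was -0.42, and without RTD-1 replicate 2 it was -0.15. At day 1 the difference was 0.17 (SE 1.18, 95% interval -2.21 to 2.54).

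Mmp3 at day 5 had a lowest value of 150, a median of 719 and a highest of 1401 normalized reads in RTD-1 rats, against 374, 951 and 1427 in saline rats. Its log2 difference was -0.51 (SE 0.36, 95% interval -1.24 to 0.22, limma adjusted p = 0.998) at day 5, 0.18 (95% interval -0.55 to 0.91) at day 3 and 0.31 (95% interval -0.72 to 1.34) at day 1. Without RTD-1 replicate 2 the day 5 difference of Mmp3 was -0.24. Mmp9 had the widest intervals, with a log2 difference of 1.38 at day 3 (95% interval -0.43 to 3.18, limma adjusted p = 0.762) and -0.80 at day 5 (95% interval -2.60 to 1.01). The day 5 difference of Mmp9 was -0.26 without RTD-1 replicate 1 and -0.29 without saline replicate 4. The intervals of Mmp13 and Mmp9 spanned more than 3 log2 units at each day.

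Mmp2 and Mmp14 had the narrowest intervals. For Mmp2 the log2 difference between RTD-1 and saline was -0.02 at day 1 (95% interval -0.52 to 0.47), -0.02 at day 3 (95% interval -0.37 to 0.33) and 0.14 at day 5 (95% interval -0.21 to 0.49). For Mmp14 it was 0.01 at day 1 (95% interval -0.54 to 0.55), 0.07 at day 3 (95% interval -0.31 to 0.46) and 0.11 at day 5 (95% interval -0.28 to 0.49). Mmp8 and Adamts1 lay between these cases. The Mmp8 difference was 0.60 at day 3 (95% interval -0.34 to 1.54) and -0.16 at day 5 (95% interval -1.09 to 0.78), and that of Adamts1 was 0.32 at day 3 (95% interval -0.32 to 0.95) and -0.28 at day 5 (95% interval -0.91 to 0.35). With 1 library left out, the day 5 difference ranged from -0.36 to 0.27 for Mmp8 and from -0.50 to -0.13 for Adamts1.

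**Figure D3:**
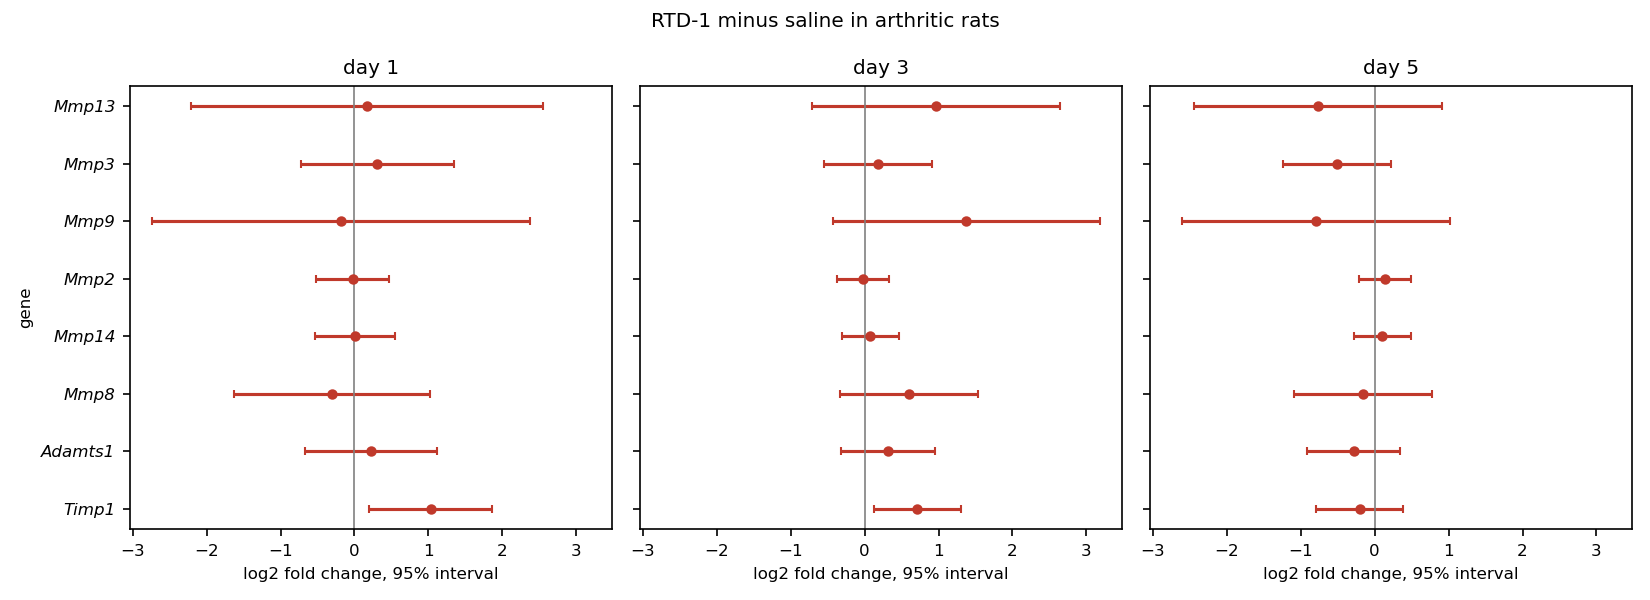
Log2 difference, RTD-1 minus saline (x axis, with its 95% interval), of each gene at days 1, 3 and 5 in arthritic rats. The intervals of Timp1 at day 1 (0.20 to 1.86) and day 3 (0.13 to 1.30) lie above 0 before adjustment over all genes, and the other 22 intervals include 0.

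At days 3 and 5, replicates 1 to 4 and 5 to 8 were also compared separately, because these groups hold 8 libraries and the other arthritic groups 4. The labels do not say whether the lower and higher numbers were collected or sequenced apart. At day 5 the difference for Mmp13 was -1.93 in replicates 1 to 4 and 0.39 in replicates 5 to 8, and that for Mmp3 was -1.45 and 0.43 in the same order. Timp1 at day 5 had -0.83 in replicates 1 to 4 and 0.43 in replicates 5 to 8. Mmp9, Mmp8 and Adamts1 changed sign in the same way at day 5, and none of these values was called. At day 3 Mmp13 had 1.52 in replicates 1 to 4 and 0.42 in replicates 5 to 8, and Timp1 had 1.16 and 0.27.

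The treated groups were also set against untreated PIA rats. No day is given here for the untreated PIA rats, so treatment and time of collection cannot be told apart in these comparisons. Timp1 in day 5 RTD-1 rats was the only call among the 8 genes in the 6 comparisons by limma as set here, and in day 5 saline rats Timp1 lay close to the threshold on the same side. It averaged 400 ± 162 normalized reads in day 5 RTD-1 rats (SD, n = 8) and 858 ± 64.9 in PIA rats (SD, n = 4), with no overlap. The log2 difference was -1.22 (SE 0.36, limma adjusted p = 0.0196), in a comparison where 12.7% of all genes were called, 11.3% lower and 1.33% higher. That split depended on the scaling, since with TMM factors 1281 genes were called and 690 of them were higher. The call was lost without PIA replicate 1 (limma adjusted p = 0.0634), replicate 2 (0.0533) or replicate 4 (0.0616), with a replicate block (-1.11, 0.0526), and in replicates 5 to 8 alone (-0.87, 0.121).

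Timp1 in day 5 saline rats averaged 485 ± 260 normalized reads (SD, n = 8) against the same PIA rats, with a log2 difference of -1.02 (SE 0.36, limma adjusted p = 0.0608). In that comparison 8.37% of all genes were called, 7.09% lower and 1.28% higher, while with TMM factors 1288 genes were called and 703 of them were higher. Timp1 was called lower in day 5 saline rats with the filter raised to 50 normalized reads (-1.02, limma adjusted p = 0.0491), with limma voom (-1.03, 0.0491) and in replicates 5 to 8 alone (-1.29, 0.0057), and its adjusted p was 0.343 in replicates 1 to 4 (-0.75). The RTD-1 and saline comparisons share the 4 PIA libraries, and the direct difference between the treatments at day 5 was the -0.20 given above. At day 3 Timp1 averaged 864 ± 419 normalized reads in RTD-1 rats and 489 ± 123 in saline rats (SD, n = 8 each). The saline values did not overlap those of PIA rats, and the log2 difference from PIA was -0.85 (SE 0.36, limma adjusted p = 0.253). Mmp8 averaged 40.5 ± 28.7 normalized reads in day 5 RTD-1 rats, 34.0 ± 18.9 in day 5 saline rats and 87.5 ± 36.5 in PIA rats, and was not called with either treatment (limma adjusted p = 0.0590 and 0.106 against PIA, in that order). limma voom called Mmp8 lower than in PIA with RTD-1 (-1.85, adjusted p = 0.0123) and with saline (-1.54, adjusted p = 0.0398). Adamts1 averaged 601 ± 347 normalized reads in day 5 RTD-1 rats, 746 ± 403 in day 5 saline rats and 1078 ± 289 in PIA rats, and was not called (limma adjusted p = 0.0754 and 0.234 in that order).

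Mmp2 and Mmp14 had positive differences from PIA at day 5. Mmp2 averaged 8057 ± 1862 normalized reads in day 5 RTD-1 rats and 6937 ± 2963 in PIA rats, and Mmp14 averaged 3680 ± 1255 in day 5 RTD-1 rats and 2787 ± 1103 in PIA rats (SD, n = 8 and 4). Neither was called (limma adjusted p = 0.360 and 0.218), while the all-gene median of this comparison was -0.24. With TMM factors, where 9.88% of all genes were called, Mmp2 (0.56, limma adjusted p = 0.0462) and Mmp14 (0.69, limma adjusted p = 0.0172) were called higher and Timp1 (-0.96, limma adjusted p = 0.033) lower. Mmp13 differed from PIA by -0.99 in day 5 RTD-1 rats (SE 1.02) and by -0.22 in day 5 saline rats (SE 1.02). At days 1 and 3, none of the 8 genes was called against PIA with RTD-1, where 0% and 0.00766% of all genes were called, or with saline, where 0% and 0.0153% were called.

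Healthy rats given RTD-1 were compared with naive rats. None of the 8 genes was called at day 3, where 11.8% of all genes were called, or at day 5, where 13.5% were called. The all-gene median was 0.30 at day 3 and 0.34 at day 5 on the log2 scale. All 10 healthy RTD-1 libraries were deeper and no naive library was, so depth and treatment cannot be told apart here. Mmp14 at day 3 had 447, 370, 300.1, 376 and 398 normalized reads in healthy RTD-1 rats, against 541, 474, 726 and 510 in naive rats, with no overlap. Its log2 difference was -0.56 (SE 0.26, limma adjusted p = 0.145), and with TMM factors, where 5.46% of all genes were called, it was -0.84 (limma adjusted p = 0.0104). Timp1 differed from naive by 0.68 at day 3 (SE 0.39, limma adjusted p = 0.265) and by 0.77 at day 5 (SE 0.39, limma adjusted p = 0.183). Mmp2 differed from naive by 0.342 at day 3 (SE 0.235, limma adjusted p = 0.367) and by 0.555 at day 5 (SE 0.235, limma adjusted p = 0.102).

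A few libraries without arthritis held Mmp13 and Mmp9 reads together. Healthy day 3 replicate 5 had 218 normalized reads of Mmp13 and 231 of Mmp9, and replicate 4 of that group had 57.0 and 27.2. Healthy day 5 replicate 3 had 25.8 of Mmp13 and 16.8 of Mmp9, and naive replicate 4 had 31.2 and 22.9. Of the other libraries of healthy RTD-1 and naive rats, Mmp13 reached 10 normalized reads in 1 and Mmp9 in 1, and these were different libraries. Mmp8 in healthy day 3 replicate 5 was 6.52, the highest of its group, where the lowest was 2.16.

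**Figure D4:**
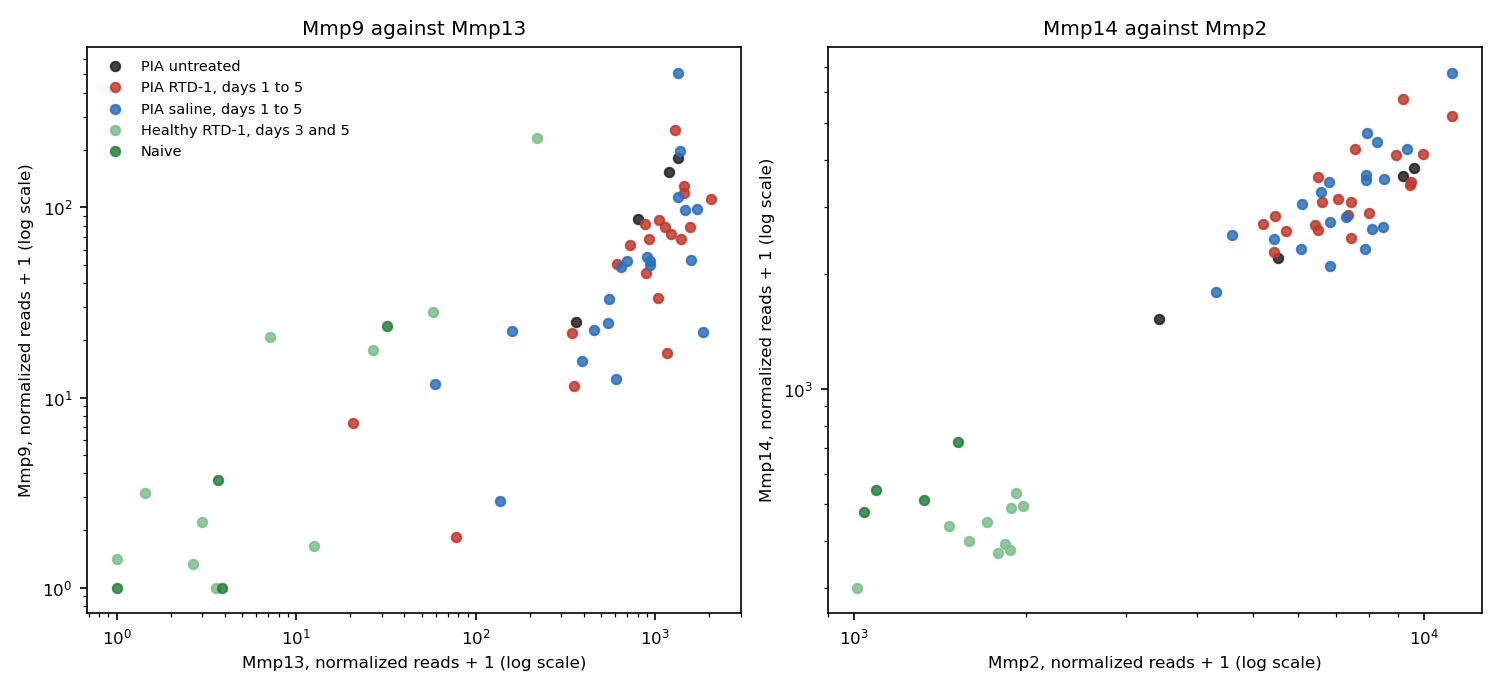
Normalized reads + 1 (both axes, log scale) of Mmp9 against Mmp13 and of Mmp14 against Mmp2, with a point per library for all 58 libraries, coloured by group. Healthy day 3 replicate 5 (218 for Mmp13 and 231 for Mmp9) lies far above the other libraries without arthritis in the first panel, and in the second panel arthritic and other libraries do not overlap.

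How the genes varied between libraries of the same group was described with deviations from the group mean in the 44 arthritic libraries. The SD of these deviations on the log2 scale was 1.51 for Mmp9, 1.36 for Mmp13 and 1.00 for Mmp8, against 0.45 for the median gene. Of all tested genes, 99.1% had a lower SD than Mmp9 and 98.3% a lower SD than Mmp13. Mmp2, at 0.38, and Mmp14, at 0.44, lay near the median gene, and Timp1 was at 0.64.

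Mmp13, Mmp9, Mmp8 and Mmp3 deviated together. Pearson's r was 0.78 for Mmp9 and Mmp8 (Spearman's rho 0.69), 0.76 for Mmp13 and Mmp3 (rho 0.67), 0.73 for Mmp13 and Mmp8 (rho 0.71) and 0.72 for Mmp13 and Mmp9 (rho 0.79). Mmp2 and Mmp14, the protease and its activator, deviated together with r = 0.79 (rho 0.76). Adamts1 deviated with Mmp3 (r = 0.66) and Timp1 (r = 0.56). Without the 2 libraries farthest from the median of 1 gene of each pair, r lay between 0.58 and 0.77 for these 7 pairs. The other gene of the pair was not used to choose the libraries left out. Adamts1 also had r = 0.52 with Mmp13 (rho 0.46), above the lowest value among the first 4 genes, which was 0.49 for Mmp3 and Mmp8. Mmp14 had r from -0.28 (with Mmp8) to 0.09 (with Mmp9) with those 4 genes. Mmp2 had r = 0.43 with Mmp9 (rho 0.40), 0.36 with Mmp3 (rho 0.38), 0.30 with Mmp13 (rho 0.36) and 0.04 with Mmp8 (rho -0.01). The points share library depth and the makeup of the dissected tissue, so these correlations are descriptions.

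Day 5 RTD-1 replicates 1 and 2 were low for several of these genes at once. They held 0.854 and 6.32 normalized reads of Mmp9, 2.56 and 7.02 of Mmp8 and 264 and 150 of Mmp3, all at the low end of their group. Their Mmp14 was 5770 and 4250, the highest and the third highest of the group. Timp1 in these libraries was 185 and 180, the lowest of the group. Markers of other cell types could not be matched to the identifiers of the table, and the part of tissue makeup in these values was not tested.

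**Figure D5:**
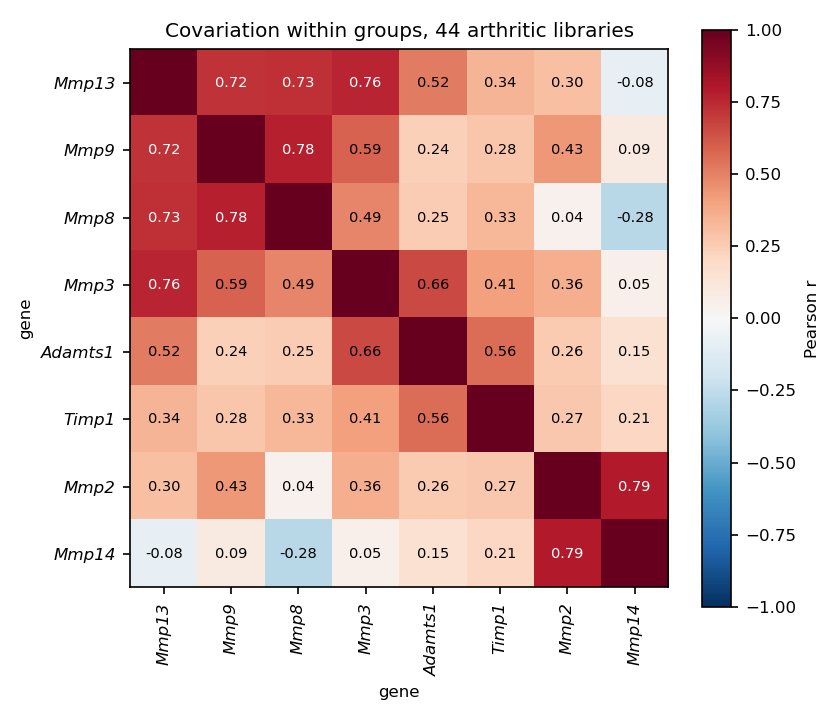
Pearson's r between the deviations of each pair of genes from their group means, over 44 arthritic libraries. Among Mmp13, Mmp9, Mmp8 and Mmp3 r ran from 0.49 to 0.78, Adamts1 reached 0.66 with Mmp3 and 0.52 with Mmp13, and Mmp2 and Mmp14 had r = 0.79.

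Genes with the most similar pattern were sought among the other 13061 tested genes by the same correlation. The gene nearest to Mmp13 was ENSRNOG00000002843 (r = 0.93) and the gene nearest to Mmp3 was ENSRNOG00000032832 (r = 0.92), which the reference tables used here do not name. Within the set, Mmp8 ranked 5 among the genes nearest to Mmp9, Mmp14 ranked 14 among those nearest to Mmp2, and Mmp3 ranked 35 among those nearest to Mmp13. Adamts1, the nearest of the set to Timp1, ranked 1389. Without the 3 deeper saline libraries Mmp3 was the nearest of the set to Timp1 (rank 1162), with r = 0.62 against 0.41 over all 44 libraries.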

How the data were processed

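Libraries for single-end sequencing (75 nt) were made from synovial total RNA with a kit that keeps strand, per the labels' protocols. The submitters' processing notes list HISAT and DESeq. For these tools, versions and settings, and likewise the genome build and gene models, were not given in the sources used here. Values as deposited are on a log2 scale. Undoing the logarithm gave whole reads multiplied by a constant of each library (relative tolerance 0.001, 100% of values), with a floor of 0.9 reads standing for 0. Between 3.84e-04% and 0.0137% of a library's reads lay in a row without an identifier, which was left out.

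Recovered reads were scaled to the median factor (5.75 megareads). The filter asked for 10 or more normalized reads in 4 or more libraries, which 13062 genes met. limma 3.58.1 in R 4.3.3 was fitted once to the 10 group means of log2(normalized reads + 1), with trend and robust moderation, and two-sided p-values were adjusted by Benjamini-Hochberg. The test had been planned for values assumed to be linear and was applied after undoing the logarithm. Intervals and limits for a count of 0 (3 reads) cover counting or library spread only. Libraries of a group differed by more than sampling noise (chi-square per degree of freedom at least 2.48 over 156 pairs). The labels do not tie libraries to animals, so p-values measure the spread between libraries, which may be technical.

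The genes and lists were chosen with earlier results of these data known. All 8 genes were tested in every comparison, but the text does not give the value of each gene in each of them. Genes of like pattern are the nearest by correlation. The reference tables pair no Ensembl identifier with a symbol, so a wider list of matrix genes and the cell type markers were not analysed here, and the tissue label was not checked against markers. The fit was tested on simulated data. Alternatives were other pseudocounts and filters, TMM factors, limma voom, fewer groups in the fit, a replicate block, lower or higher replicate numbers, and leaving out libraries. TMM factors together with leaving out the deeper saline libraries was added after seeing the data.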

Additional observations from a re-analysis of the deposited data

Results flagged for a closer look

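Of 80 sets of values (8 genes in 10 groups), 5 held a library that lay apart from the rest of its group by Dixon's ratio on log2 values, where chance gives about 1 in 20. Timp1 in day 1 RTD-1 replicate 3 was 1828.3 normalized reads, above the next value of 1171.7, and without it the day 1 log2 difference between RTD-1 and saline was 0.86. Adamts1 in day 3 RTD-1 replicate 6 was 420.5, below the next value of 648.3, in the library with the fewest reads (464693). Mmp2 was 1012.2 in healthy day 3 RTD-1 replicate 3, where the next value was 1585.8, and 1466.5 in healthy day 5 RTD-1 replicate 5, where the next was 1836.5. Mmp8 was 0.9977 normalized reads, a single read, in naive replicate 3, where the next value was 5.207.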

How the results depend on the processing

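Of 3616 fold changes recomputed under an alternative, 156 had another sign than in the main setting, and 0 of these had been called. Of 486 recomputed values of called genes, 21 lost their call, and 26 values of uncalled genes gained one. All 8 genes stayed called between PIA and naive under every alternative except limma voom (7, without Mmp9), and 0 were called between RTD-1 and saline at any day under any alternative. Between day 5 RTD-1 and naive, limma voom called 5, and 7 were called (without Mmp9) with a pseudocount of 8, with only the compared groups in the fit and with a replicate block. Between day 5 RTD-1 and PIA, where 1 was called (Timp1), 2 were called with a pseudocount of 8, with a filter of 50 normalized reads and with limma voom (Timp1 and Mmp8), 3 with TMM factors, 4 in replicates 1 to 4 and 0 in replicates 5 to 8. Leaving out 1 library gave 0 to 2 in that comparison, and 0 without PIA replicate 1, 2 or 4. Between day 5 saline and PIA, where 0 were called, 1 was called with the filter of 50 (Timp1), and 2 (Timp1 and Mmp8) with limma voom and in replicates 5 to 8, and 0 to 1 with 1 library left out (1 without saline replicate 2 or 4). Between healthy day 3 RTD-1 and naive, where 0 were called, 1 was called with TMM factors and 2 with only the compared groups in the fit. The cause was not tested for any of these changes.

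Replicate numbers were not used to pair the samples in the main fit. Correlations of same-numbered libraries' deviations ran from -0.215 to 0.277. Differently numbered libraries were not compared, so these values cannot decide whether the numbers pair the samples. A replicate block took the day 5 RTD-1 difference of Timp1 from PIA to -1.11 (limma adjusted p = 0.0526) and that of Mmp8 to -1.88 (0.0415), and ended the Mmp9 call between day 5 RTD-1 and naive (2.58, 0.0918). The alternatives planned for a wider list of matrix genes were not run, since its symbols could not be matched. Mmp9, Mmp13 and Mmp8 had the largest SD within arthritic groups (1.51, 1.36 and 1.00 on the log2 scale), and which part of it comes from few reads was not tested.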
